A study of Mus musculus with 8 samples.

Results

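Aminoacyl-tRNA synthetases are the enzymes that join each amino acid to its transfer RNA (tRNA). Their genes were found by symbol in the deposited expression table of every library. All 36 genes looked for were found, 20 for cytosolic and 16 for mitochondrial enzymes, among 23043 gene symbols in all. RNA was sequenced in 8 libraries of mouse pluripotent stem cells, 2 in each of 4 groups. CDGC1 and CDGC6 are lines grown from early teratoma cells of the testis of new-born Dnd1 ter/ter mice of strain 129Sv that carried the reporter Oct4deltaPE-GFP, at passages 15 to 18. Wild-type E14tg2a cells, an embryonic stem (ES) cell line of 129/Ola origin at passages 10 to 12, served as control. The Dnd1-KD group were ES cells of the same origin, genotype and passages in which Dnd1, an RNA-binding protein of germ cells, had been knocked down. The means of the knockdown is not given in the sources used here. All groups grew in medium with serum and LIF. Each derived line is a single line, and its origin, strain, genotype and passage differ together from those of the control and cannot be told apart.

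Values are FPKM, fragments scaled by transcript length and by the mapped fragments of the library, so levels can be compared between genes per length. A log2 difference is the difference of group means of log2(FPKM + 1), which understates the change of low genes. A gene passed when limma's test gave an adjusted p below 0.05 after Benjamini-Hochberg adjustment over all 11893 units tested. The level of a gene is given for both libraries of a group, replicate 1 first, and differences with their standard error (SE). Whether a group's 2 libraries represent separate cultures is not stated, so the p-values measure library spread alone, and that spread may be technical. In 6 genes at least 1 library's table joined the gene with a neighbour, and each was tested as a unit with it, as Aars with Exosc6, Ears2 with Gga2, Hars with Dnd1, Tars2 with Ecm1, Vars with Lsm2 and Vars2 with Gtf2h4. A unit's value was the joint entry in some libraries and the sum of separate entries in others, and these need not be equal. All 36 genes, as 36 units, passed the filter of 1 FPKM in at least 2 libraries. An exact 0 in these tables may be a failed estimate, so such a gene is only said to be listed at 0. The library kit does not mark strand, so reads of overlapping antisense genes cannot be told apart.

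Cytosolic synthetases serve translation on cytosolic ribosomes, and 8 of them (Dars, Eprs, Iars, Kars, Lars, Mars, Qars and Rars) sit in the multi-tRNA synthetase complex around the scaffold proteins AIMP1, AIMP2 and EEF1E1. Mitochondrial synthetases, mostly named with a 2, are made from nuclear genes and imported to serve the mitochondrial ribosome. The enzymes for glycine and lysine are made from a single gene each, Gars and Kars, for both compartments. When tRNAs lack their amino acid, the kinase GCN2 (Eif2ak4) phosphorylates the initiation factor eIF2, and the transcription factor ATF4 is then translated. ATF4 is known to raise many cytosolic synthetase genes through C/EBP-ATF response elements. A list of 12 cytosolic genes known as such targets (Aars, Cars, Eprs, Gars, Iars, Lars, Mars, Nars, Sars, Tars, Wars and Yars) is called the ATF4 list here.

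Promoter sequences of the synthetase genes were searched for the letters of that response element. RefSeq promoter windows of build GRCm38.p6, from 250 bases before to 50 bases after the start, were matched for 27 of the 36 genes, and not for Cars, Hars, Hars2, Lars, Nars, Pars2, Rars, Vars and Wars. The element was searched as TGATGNAA on both strands. It was in the windows of 5 of 8 matched genes of the ATF4 list, 0 of 5 other cytosolic genes and 0 of 14 mitochondrial genes, against 3.97% of all 32851 windows. Its first base lay at position -112 in Aars, which held another at position 9 after the start, at -30 in Gars, at -15 in Tars, at 7 in Iars and at 3 in Yars. The stretches that hold it are printed 5′ to 3′ on the gene's strand, with the element in capitals, and Sars is shown beside them because it had the largest log2 difference of the 36 genes and its window held no match. They are the 250 bases before the start for Aars (chr8:111033592-111033841, plus strand), Gars (chr6:55037751-55038000, plus), Tars (chr15:11399659-11399908, minus) and Sars (chr3:108445260-108445509, minus), and 30 bases around the element for Iars (chr13:49682126-49682155, plus) and Yars (chr4:129189895-129189924, plus).
Aars: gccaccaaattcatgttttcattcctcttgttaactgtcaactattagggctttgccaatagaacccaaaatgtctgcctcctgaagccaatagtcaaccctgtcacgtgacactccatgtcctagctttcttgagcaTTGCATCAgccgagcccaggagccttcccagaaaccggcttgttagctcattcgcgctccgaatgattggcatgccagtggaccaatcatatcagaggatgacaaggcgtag
Gars: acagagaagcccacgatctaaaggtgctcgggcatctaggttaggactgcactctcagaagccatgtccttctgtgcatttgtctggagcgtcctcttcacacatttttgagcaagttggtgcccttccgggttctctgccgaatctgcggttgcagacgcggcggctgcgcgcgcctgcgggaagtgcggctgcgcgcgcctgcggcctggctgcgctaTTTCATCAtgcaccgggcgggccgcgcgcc
Tars: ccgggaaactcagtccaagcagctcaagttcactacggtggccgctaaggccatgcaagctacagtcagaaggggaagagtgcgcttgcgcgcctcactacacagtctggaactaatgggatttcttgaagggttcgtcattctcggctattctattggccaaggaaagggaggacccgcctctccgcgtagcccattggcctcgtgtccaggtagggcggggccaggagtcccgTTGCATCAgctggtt
Sars: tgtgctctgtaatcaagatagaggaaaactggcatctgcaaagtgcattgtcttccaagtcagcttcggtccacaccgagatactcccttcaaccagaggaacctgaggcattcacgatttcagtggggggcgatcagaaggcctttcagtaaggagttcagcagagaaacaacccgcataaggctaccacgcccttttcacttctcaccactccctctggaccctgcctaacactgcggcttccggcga
Iars: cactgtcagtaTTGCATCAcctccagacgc
Yars: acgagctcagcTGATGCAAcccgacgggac

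A match of these letters is a description of the window, not a measured site, and the windows were not assayed here. The E-box CACGTG, which does not overlap those elements, was in the windows of 4 of 13 cytosolic genes (Aars, Farsb, Iars and Tars) and 1 of 14 mitochondrial genes (Ears2), against 7.15% of all windows.

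Taken as counting noise alone, the intervals in the tables imply 10.7 M to 18.0 M fragments per library. That assumption did not hold for all members. Lars2 implied 2289 fragments at 373 FPKM in control replicate 1 and 34179 at 290.4 FPKM in control replicate 2. The depth is therefore uncertain. Of 8 markers of pluripotent cells, 8 reached 1 FPKM in both libraries of control, Dnd1-KD and CDGC6 and 5 did so in CDGC1, where Zfp42 was listed at 0.0220 and 0 FPKM and Esrrb at 0.211 and 0.140. Their summed FPKM was 2134 to 2172 in control, 1087 to 1317 in Dnd1-KD, 1280 to 1346 in CDGC1 and 2083 to 2491 in CDGC6, and in Dnd1-KD Pou5f1 (log2 difference -0.93, adjusted p = 0.00289), Sox2 (-0.90, adjusted p = 0.00565) and Nanog (-0.80, adjusted p = 0.0199) were lower than in control. The summed FPKM of 9 fibroblast markers was 17.3 to 19.6 in control, 73.0 to 75.0 in Dnd1-KD, 46.1 to 58.8 in CDGC1 and 37.2 to 46.3 in CDGC6. Acta2 made up most of it in Dnd1-KD, and without it the sums were 7.001 to 7.66, 10.0 to 10.3, 33.6 to 35.1 and 24.7 to 32.3. That of 6 endoderm markers was 11.3 to 12.2, 45.5 to 48.4, 16.1 to 47.5 and 9.59 to 13.6 in the same order, and 1.21 to 1.26, 3.996 to 5.03, 8.85 to 41.1 and 3.41 to 7.09 without Col4a1. The part of these markers in the differences below was not tested, and in bulk RNA fewer cells of a type and less RNA per cell cannot be told apart. Dnd1 was listed at 0 in the control, CDGC1 and CDGC6 libraries and only jointly with Hars in Dnd1-KD, so its level did not check the knockdown label.

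The median cytosolic synthetase gene was more abundant than the median mitochondrial one in all 8 libraries. Averaged over the libraries, the cytosolic genes ran from Cars (cysteine) at 38.7 FPKM through a median of 81.2 to Gars at 145 and Kars at 174. Gars ranged from 118 to 199.6 and Kars from 113 to 208 across libraries, so the order of these neighbours did not hold beyond their spread. The mitochondrial genes ran from Wars2 (tryptophan) at 2.38 and Pars2 (proline) at 3.48 FPKM through a median of 14.0 to Lars2 (leucine) at 377. Lars2 therefore stood above the cytosolic gene for the same amino acid, Lars, which averaged less in every group. Ears2 (glutamate) had 45.6 FPKM only as a unit with Gga2, and its own entries, present in 7 libraries, held 3.11 to 8.86.

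**Figure D1:**
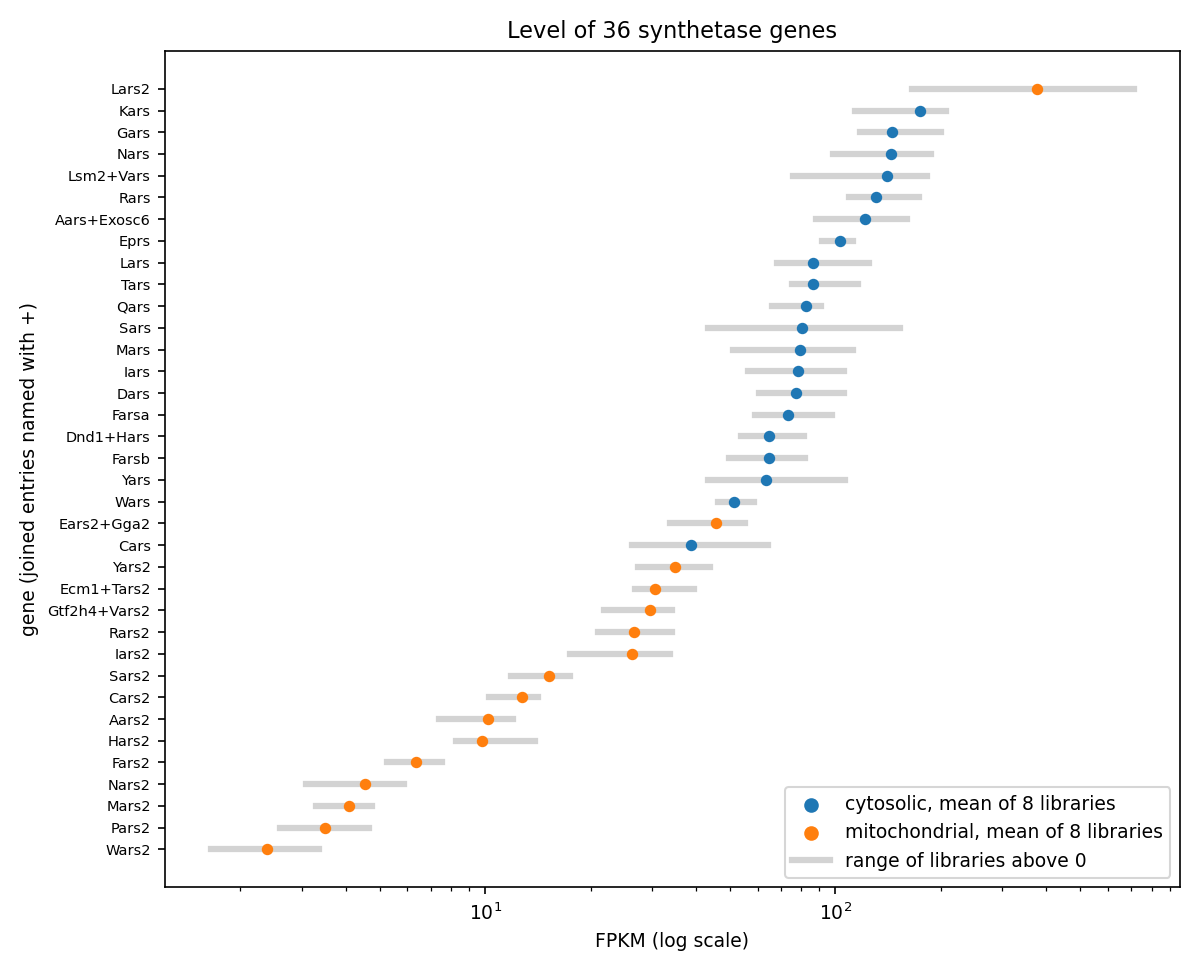
Mean FPKM of each of the 36 genes over 8 libraries on a log scale, cytosolic in blue and mitochondrial in orange, with grey bars from the lowest to the highest library above 0. Mitochondrial genes fill the lower end, with a median of 14.0 against 81.2 FPKM for cytosolic genes, and Lars2 lies at the top at 377.

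The deposited intervals were wider for mitochondrial than for cytosolic values. The interval that the deposited tables give around a value had a median size on either side of 4.59% of the value for 160 cytosolic entries and 8.20% for 127 mitochondrial entries. Of these, 2 cytosolic and 3 mitochondrial entries had an interval that reached beyond 100% of the value, those of Farsa and Rars2 in CDGC1 replicate 1, Vars2 in CDGC1 replicate 2, Mars in CDGC6 replicate 1 and Aars2 in CDGC6 replicate 2.

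In the heat map of all libraries against the control mean, most of the ATF4 list was higher in CDGC6, but not Wars (log2 difference -0.10) and hardly Eprs (0.15). Rows of a class are ordered by the CDGC6 difference, so the block they form is partly made by the order. The mitochondrial genes varied mostly within a narrow range, on a scale that understates the change of low genes.

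**Figure D2:**
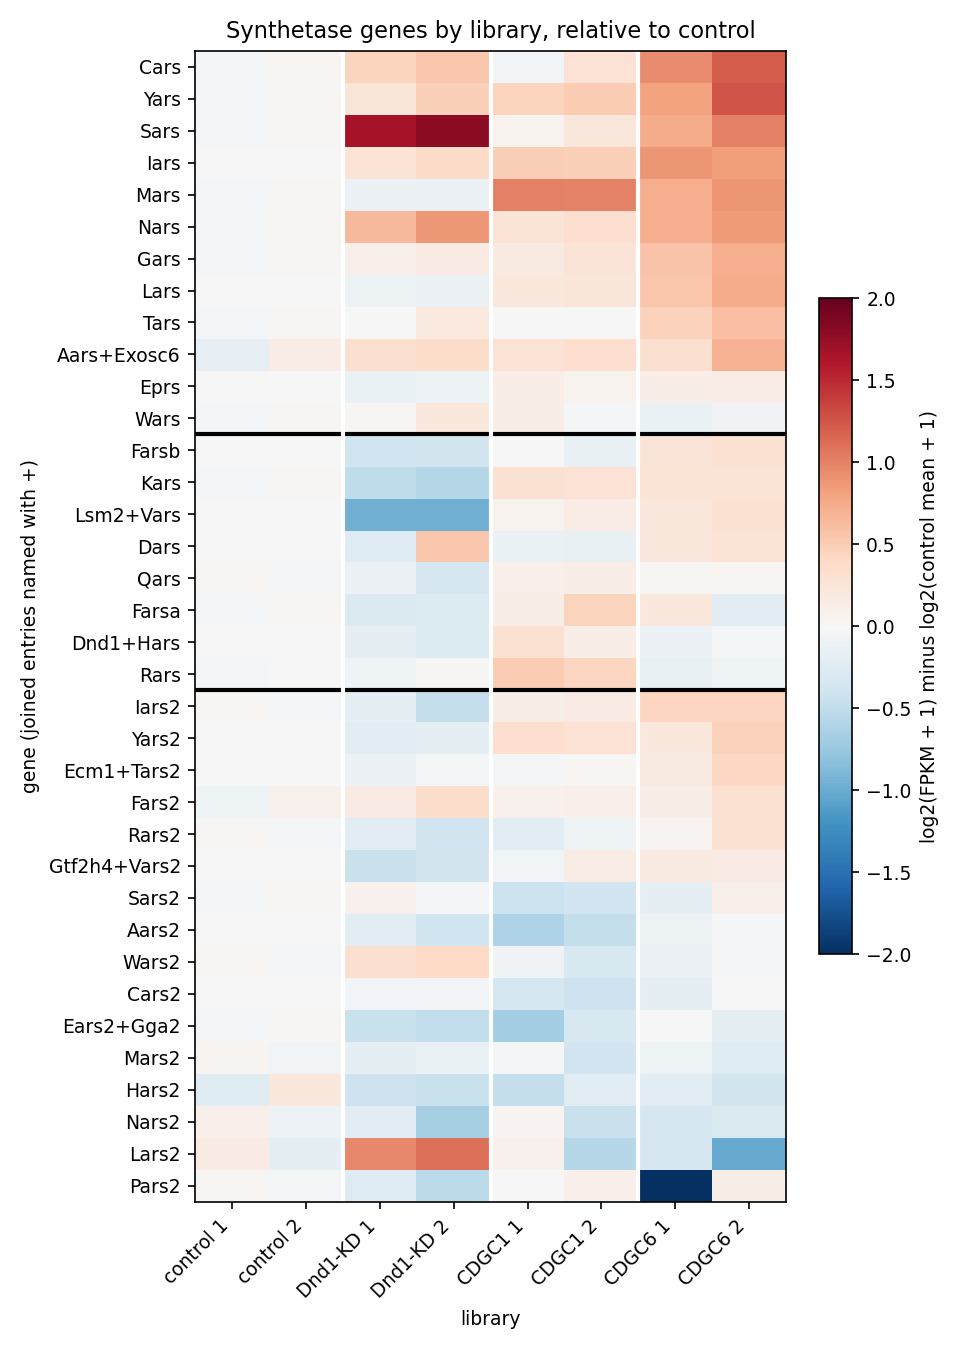
Each cell is log2(FPKM + 1) of a library minus log2 of the control mean + 1, for 36 genes (rows; joined units named with +) in 8 libraries (columns). Horizontal lines separate the ATF4 list (top), other cytosolic genes and mitochondrial genes (bottom). Within each class, rows run from the highest to the lowest log2 difference of CDGC6 against control. The colour scale ends at 2 on either side, which Pars2 in CDGC6 replicate 1, listed at 0, passes.

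Knockdown cells were compared with control ES cells to ask what differs when Dnd1 is reduced. Sars, the seryl-tRNA synthetase gene, was much higher in Dnd1-KD, Nars (asparagine) and Iars (isoleucine) were higher by less, and Kars (lysine) was lower. In all, 11 of 36 genes passed, 6 higher and 5 lower, or 30.6%, where 36.2% of all tested units passed. The median log2 difference was -0.11 over the 36 genes and 0.02 over all units. The share that passed was thus near the background, and the genes moved in both directions. Without control replicate 1, control replicate 2 or Dnd1-KD replicate 2, 4, 4 and 5 members passed, while the units that passed went from 4310 to 1363, 1628 and 1935.

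On the ATF4 list, 4 of 12 genes rose and 0 fell, also 0 at an unadjusted p below 0.05 (limma), with a median log2 difference of 0.23. Of all units 20.7% were higher and 15.5% lower. Sars, which spans bases 108424865 to 108445209 on the minus strand of chromosome 3 (mm10), was at 43.3 and 44.4 FPKM in the control libraries and 140.3 and 153 in Dnd1-KD. The groups lay far apart, with a log2 difference of 1.72 (SE 0.11, adjusted p = 0.000393) and a ratio of means of 3.35. Nars was at 98.4 and 105 FPKM in control and 159 and 187 in Dnd1-KD, also without overlap, and rose by 0.76 (SE 0.09, adjusted p = 0.00321). Iars was at 56.3 and 57.3 in control and 69.1 and 74.4 in Dnd1-KD, a rise of 0.33 (SE 0.06, adjusted p = 0.0104). Cars was at 26.5 and 28.0 in control and 37.4 and 40.0 in Dnd1-KD. Its difference of 0.49 passed narrowly (adjusted p = 0.0379), and leaving out either library of either group ended the call (adjusted p from 0.0894 to 0.162). Gars did not pass, with 118 and 122 FPKM in control and 128 and 134 in Dnd1-KD (log2 difference 0.13, SE 0.08, adjusted p = 0.227). The count on the list was 2 without either control library or Dnd1-KD replicate 2, and 3 without Dnd1-KD replicate 1.

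Of the other 8 cytosolic genes, 0 rose (0 at an unadjusted p below 0.05, limma) and 3 fell, one of them only as a joined unit, with a median log2 difference of -0.25. Both shares are of few genes, and the difference between these genes and the list was not tested. Kars, whose product also serves mitochondria, was at 166 and 171 FPKM in control and 119 and 113 in Dnd1-KD and fell by 0.54 on the log2 scale (SE 0.05, adjusted p = 0.00187). Farsb, the beta subunit of the phenylalanine enzyme, was at 65.8 and 66.1 in control and 49.6 and 50.8 in Dnd1-KD and fell by 0.39 (SE 0.07, adjusted p = 0.00861). Without control replicate 1 or 2 the adjusted p of Farsb was 0.0645 or 0.0604. Its partner Farsa, the alpha subunit, had 71.0 and 73.1 FPKM in control and 58.8 and 59.5 in Dnd1-KD and did not pass (log2 difference -0.28, SE 0.16, adjusted p = 0.213).

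Vars (valine) could be read in Dnd1-KD only with its neighbour in 1 library. The unit of Vars and Lsm2, a gene of a small RNA-binding complex, was at 149 and 148 FPKM as a sum of separate entries in control, at 75.5 as a joint entry in Dnd1-KD replicate 1 and at 75.7 as a sum in replicate 2, a log2 difference of -0.97 (SE 0.06, adjusted p = 0.000376). In Dnd1-KD replicate 2, where the entries were separate, Vars was at 32.6 and Lsm2 at 43.1, against 75.3 and 74.8 for Vars and 74.2 and 72.8 for Lsm2 in control. With the joined symbols left unmerged, Vars did not pass (-0.59, adjusted p = 0.255). That setting counted the whole joint entry of 75.5 in Dnd1-KD replicate 1 as Vars, so it cannot isolate Vars from Lsm2. Hars (histidine), joined with Dnd1, was at 65.8 and 65.0 FPKM in control, with Dnd1 listed at 0, and at 57.6 and 53.9 as the joint entry in Dnd1-KD. The unit did not pass (log2 difference -0.23, SE 0.08, adjusted p = 0.0729), although the 2 groups did not overlap. Its mitochondrial partner Hars2, which overlaps it on the other strand, had 9.91 and 13.9 FPKM in control and 8.68 and 8.45 in Dnd1-KD (adjusted p = 0.103).

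Of 16 mitochondrial genes in Dnd1-KD, 2 rose and 2 fell, and 12 had a negative difference (median -0.25). Without either control library or Dnd1-KD replicate 2, 0 of the 16 passed, and 1 passed without Dnd1-KD replicate 1. Lars2, on chromosome 9 from 123366927 to 123462666, was at 373 and 290.4 FPKM in control and 643 and 711 in Dnd1-KD. The libraries did not overlap, and the log2 difference was 1.04 (SE 0.29, adjusted p = 0.0349). It lost the call without any of these 4 libraries in turn (adjusted p from 0.0832 to 0.155). Rn45s, a ribosomal RNA entry that remained after small RNA symbols were removed, was also higher in Dnd1-KD. It was at 373 and 425 FPKM in control and 461 and 579.8 in Dnd1-KD. Between the 2 control libraries it went the other way from Lars2. In CDGC1 Rn45s was at 143 and 185 and Lars2 at 351 and 223, and in CDGC6 Rn45s was at 269 and 248 and Lars2 at 261 and 165. The part of Rn45s in the result was not tested. Wars2 was at 2.34 and 2.24 in control and 3.11 and 3.35 in Dnd1-KD (log2 difference 0.36, SE 0.11, adjusted p = 0.0431), and without either library of either group its adjusted p was 0.0866 to 0.188.

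The 2 mitochondrial genes that fell did so as units with a neighbour. Ears2 with Gga2, a gene of vesicle sorting, summed to 53.1 and 55.3 FPKM in control and 39.5 and 38.2 in Dnd1-KD, a log2 difference of -0.47 (SE 0.13, adjusted p = 0.0332). Most of that sum was Gga2. The entries of Ears2 alone were at 3.24 and 3.11 in control and 6.55 and 6.21 in Dnd1-KD, and the unmerged difference was 0.82 in the opposite direction (adjusted p = 0.382). The spread behind that p also held CDGC1, where the joint entry of 33.6 in replicate 1 counted as Ears2 beside 8.29 in replicate 2. Vars2 with Gtf2h4, a transcription factor subunit gene, summed to 29.97 and 30.5 FPKM in control and 21.8 and 23.1 in Dnd1-KD (log2 difference -0.41, SE 0.09, adjusted p = 0.0141). Vars2 alone had 6.34 and 7.17 in control and 4.61 and 7.74 in Dnd1-KD, which overlap, and did not pass unmerged (-0.15, adjusted p = 0.88). Its spread likewise held CDGC6, where the joint entry of 34.2 in replicate 1 counted as Vars2 beside 8.58 in replicate 2. Leaving out any library of the 2 groups ended both calls, with adjusted p from 0.0922 to 0.141 for the Ears2 unit and from 0.0503 to 0.0835 for the Vars2 unit.

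**Figure D3:**
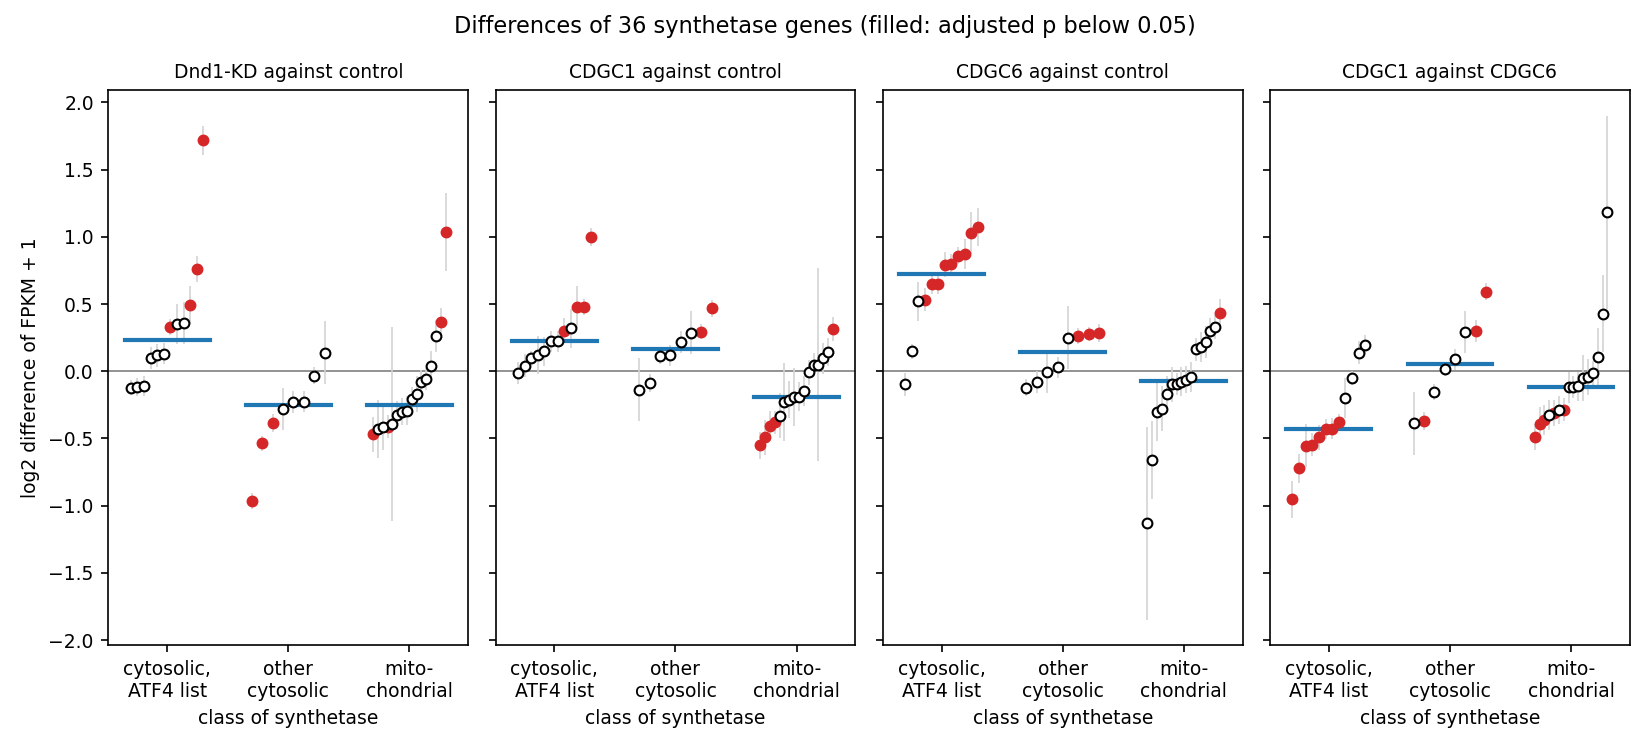
Log2 difference of FPKM + 1 (y) of the 36 genes by class (x) in each of the 4 comparisons, with bars of 1 SE, filled points for adjusted p below 0.05 and a blue line at each class median. The ATF4 list has medians of 0.23, 0.22 and 0.72 in Dnd1-KD, CDGC1 and CDGC6 against control and -0.43 in CDGC1 against CDGC6.

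The derived line CDGC6 was compared with control ES cells to ask how a teratoma-derived stem cell line differs from an ES cell line. In CDGC6 12 of 20 cytosolic synthetase genes were higher, most of all Cars, Yars (tyrosine), Sars and Iars, and 1 of 16 mitochondrial genes was. In all, 13 of 36 genes passed, 36.1%, all of them higher, where 18.7% of all units passed and 8.47% of all units were higher. None was lower at an unadjusted p below 0.05 (0 of 36, limma). The median log2 difference was 0.20, against -0.01 over all units. Without control replicate 1 or 2, 6 and 7 members passed, while all units that passed went from 2221 to 422 and 491.

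Of the 20 cytosolic genes 12 rose, and of the 12 on the ATF4 list 9 rose, with a median log2 difference of 0.72. The count of 12 cytosolic genes was 10 and 9 without CDGC6 replicate 1 and 2 and 6 and 7 without control replicate 1 and 2, and the count on the list was 6 and 7 without those control libraries. Cars, on chromosome 7 from 143557230 to 143600090, was at 53.3 and 64.2 FPKM in CDGC6 against the 26.5 and 28.0 of control, a log2 difference of 1.07 (SE 0.14, adjusted p = 0.00678). Without control replicate 1 its adjusted p was 0.0532. Yars was at 43.2 and 44.3 in control and 76.8 and 106 in CDGC6, which did not overlap but spread widely (1.03, SE 0.16, adjusted p = 0.0105, and 0.0707 or 0.062 without control replicate 1 or 2). Sars was at 73.8 and 88.9 in CDGC6 (0.87, SE 0.11, adjusted p = 0.00575), above both control libraries and below both Dnd1-KD libraries.

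Iars reached 106 and 102 FPKM in CDGC6, the highest of the 4 groups, with a log2 difference of 0.86 (SE 0.06, adjusted p = 0.00111). Mars (methionine) was at 54.8 and 56.4 in control and 92.4 and 103 in CDGC6 (0.80, SE 0.07, adjusted p = 0.00185). The deposited interval of the 92.4 runs from 0 to 11491 FPKM, and the gene also passed without that library. Nars was at 169 and 185 in CDGC6 (0.79, SE 0.09, adjusted p = 0.00511), a range that overlapped that of Dnd1-KD. Gars and Lars (leucine) rose alike in size: Gars was at 178 and 199.6 in CDGC6 (0.65, SE 0.08, adjusted p = 0.00488), and Lars went from 74.2 and 73.2 in control to 109 and 124 (0.65, SE 0.08, adjusted p = 0.00473). Tars (threonine) was at 75.2 and 77.3 in control and 106 and 116 in CDGC6 (0.53, SE 0.08, adjusted p = 0.0115, and 0.0855 or 0.0712 without control replicate 1 or 2). On the list, Aars with Exosc6, Eprs (glutamate and proline) and Wars (tryptophan) did not pass. The Aars unit had 123 and 160.3 FPKM in CDGC6 and 88.0 and 108 in control (0.52, SE 0.15, adjusted p = 0.0577). In both groups replicate 1 was a joint entry and replicate 2 a sum of separate entries, which need not be alike.

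Of the other 8 cytosolic genes, 3 rose in CDGC6 (Kars, Farsb and the Vars unit), with a median of 0.14. Kars was at 205 and 204 FPKM, against 166 and 171 in control (0.28, SE 0.05, adjusted p = 0.021), and Farsb at 79.1 and 81.9 against 65.8 and 66.1 (0.28, SE 0.07, adjusted p = 0.0373). Without either library of either group the adjusted p of Kars was 0.0582 to 0.155, and the count of these 8 genes was 0 in each of these cases. Hars did not pass (60.1 and 63.4 FPKM in CDGC6, adjusted p = 0.51).

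Of the 16 mitochondrial genes 1 rose in CDGC6, Iars2, and the class median was -0.07. Iars2 was at 25.2 and 24.1 FPKM in control and 33.5 and 33.7 in CDGC6 (0.43, SE 0.11, adjusted p = 0.0399), and without either library of either group its adjusted p was 0.107 to 0.195. Hars2 had 10.1 and 8.99 FPKM in CDGC6 and overlapped the control (adjusted p = 0.285). Pars2 was listed at 0 in CDGC6 replicate 1 and at 4.65 in replicate 2, so its difference of -1.13 had an SE of 0.72. Lars2 had 261 and 165 FPKM in CDGC6, below both control libraries, and did not pass (-0.66, SE 0.29, adjusted p = 0.159).

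The line CDGC1 was compared with the same control libraries. Mars was the synthetase gene with the largest difference in CDGC1, followed among the genes that rose by Iars, Yars and Rars (arginine). The lower genes were 4 mitochondrial ones, among them Ears2 only as a unit with Gga2. In all, 11 of 36 genes passed, 7 higher and 4 lower, 30.6%, where 50.5% of all units passed, so fewer members passed than in the background. The median was 0.10, against -0.03 over all units. Without control replicate 1 or 2, 5 members passed in each case.

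Of 20 cytosolic genes, 6 rose in CDGC1 and 0 fell, also 0 at an unadjusted p below 0.05 (limma), where 23.6% of all units were higher and 27% lower. They were 4 of the 8 genes of the multi-tRNA synthetase complex and 2 of the 12 others, a difference that was not tested. The count of 6 was 4 and 5 without CDGC1 replicate 1 and 2, and 3 and 4 without control replicate 1 and 2. Mars was at 113 and 112 FPKM against 54.8 and 56.4 in control, a log2 difference of 0.999 (SE 0.07, adjusted p = 0.000102). It lies on the minus strand of chromosome 10 from 127296221 to 127311786 and overlaps Ddit3 on the plus strand, and Ddit3 was listed at 0 in control, CDGC1 and CDGC6 and at 135 and 180.5 in Dnd1-KD. Iars was at 80.2 and 79.1 in CDGC1, above control without overlap (0.48, SE 0.06, adjusted p = 0.00123). Rars, on chromosome 11 from 35808381 to 35834506, was at 173 and 165 in CDGC1 and 121 and 123 in control, and rose by 0.47 (SE 0.06, adjusted p = 0.00155).

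Kars rose to 208 and 207 FPKM in CDGC1 (0.29, SE 0.05, adjusted p = 0.0051, and 0.0514 without control replicate 1). Nars was at 123 and 128 (0.30, SE 0.09, adjusted p = 0.0382) and Yars at 59.8 and 62.8 (0.48, SE 0.16, adjusted p = 0.0436). Without either library of either group, the adjusted p was 0.0806 to 0.177 for Nars and 0.101 to 0.147 for Yars. For both genes the values of CDGC1 lay between those of control and CDGC6. On the ATF4 list 4 of 12 genes rose in CDGC1, and 2 without any of those 4 libraries, with a median of 0.22, close to the 0.17 of the other cytosolic genes. Gars, at 136 and 144 FPKM, missed the threshold narrowly (0.22, SE 0.08, adjusted p = 0.052). Hars, at 81.4 and 71.5, did not pass either (0.22, SE 0.08, adjusted p = 0.0669).

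Of 16 mitochondrial genes 1 rose and 4 fell in CDGC1, with a median of -0.19. Those that fell numbered 4 and 3 without CDGC1 replicate 1 and 2, and 2 and 1 without control replicate 1 and 2, and 0 rose in any of these cases. Aars2 (alanine) was at 12.0 and 11.9 FPKM in control and 7.39 and 8.29 in CDGC1 and fell by 0.55 (SE 0.10, adjusted p = 0.00487). Sars2 was at 15.9 and 16.7 in control and 11.8 and 12.2 in CDGC1 and fell by 0.41 (SE 0.11, adjusted p = 0.0221). Cars2 was at 14.1 and 13.8 in control and 10.8 and 10.2 in CDGC1 and fell by 0.38 (SE 0.08, adjusted p = 0.0104). All these lay below control without overlap. Yars2 was the mitochondrial gene that rose, from 31.5 and 31.9 to 40.4 and 39.0 FPKM (0.31, SE 0.09, adjusted p = 0.0296). Without either library of either group the adjusted p was 0.0533 to 0.116 for Sars2 and 0.0613 to 0.128 for Yars2, and without control replicate 1 or 2 it was 0.0736 and 0.0611 for Cars2. The unit of Ears2 and Gga2 fell by 0.49 (SE 0.13, adjusted p = 0.02), from 53.1 and 55.3 to 33.6 and 43.4. Its adjusted p was 0.0508 without CDGC1 replicate 1 and 0.0689 or 0.0934 without control replicate 1 or 2, and the unmerged entries of Ears2 gave the opposite sign, with 2.10. The 2.10 counted the joint entry of 33.6 FPKM in CDGC1 replicate 1 as Ears2, so it also holds Gga2. In CDGC1 replicate 2, where the entries were separate, Ears2 was at 8.29, above its 3.24 and 3.11 in control, and Gga2 was at 35.1, below its 49.8 and 52.2. Hars2 had 8.28 and 10.1 FPKM and did not pass (-0.33, SE 0.17, adjusted p = 0.152).

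**Figure D4:**
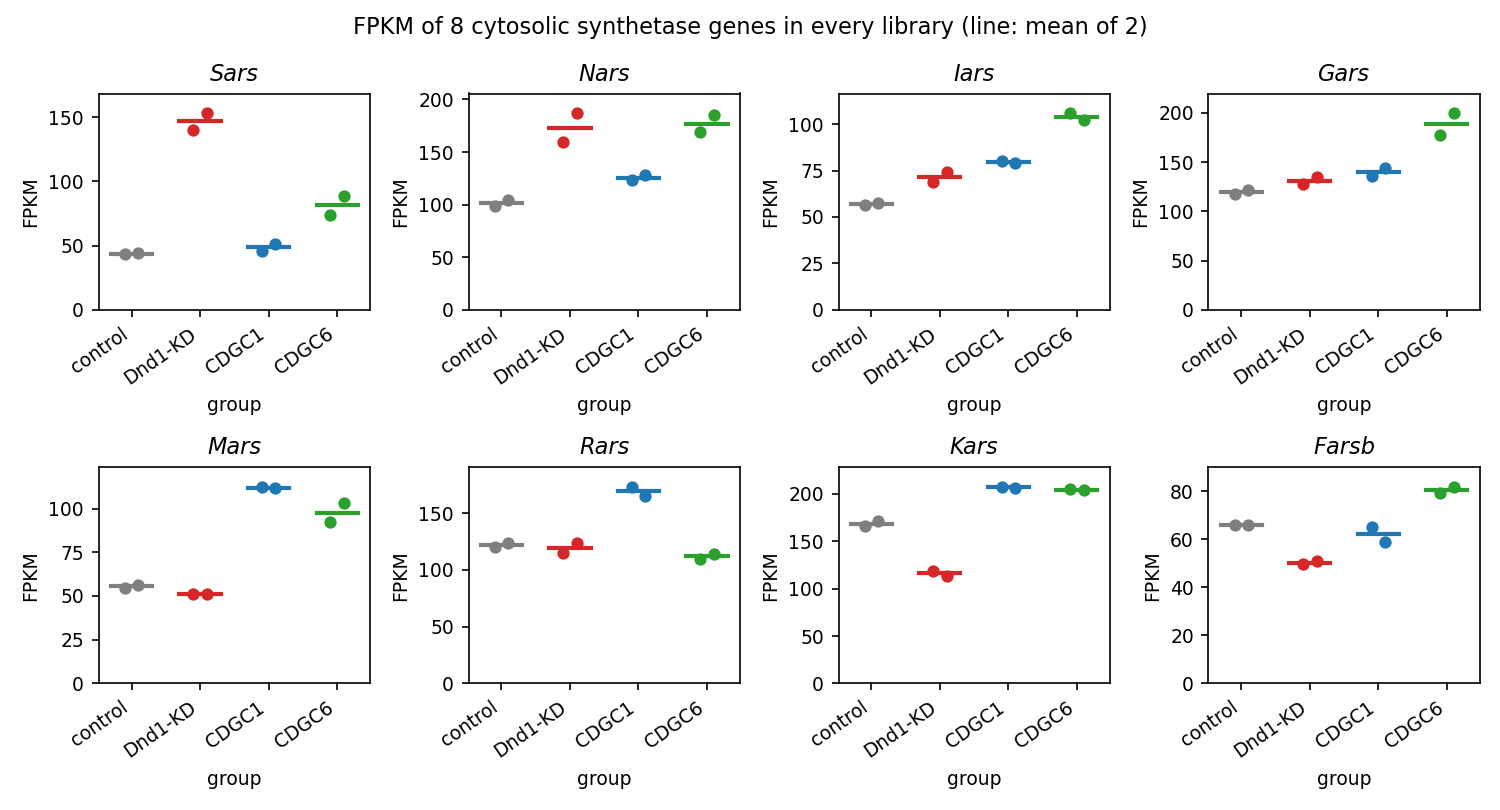
FPKM (y, from 0) of 8 cytosolic genes in the 2 libraries of each group (x), with a line at the mean of 2. Sars has 140.3 and 153 in Dnd1-KD against 43.3 and 44.4 in control, Rars stands apart in CDGC1 at 173 and 165, and Kars is at 119 and 113 in Dnd1-KD against 204 to 208 in both derived lines.

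The 2 derived lines were then compared with each other, without the control libraries in the contrast. Most synthetase genes that differed were lower in CDGC1, led by Cars and Sars, while Rars and Hars were higher there. In all, 16 of 36 genes passed, 2 higher and 14 lower in CDGC1, 44.4%, where 47.2% of all units passed, 23% higher and 24.1% lower. The median was -0.18, against -0.02 over all units. The share that passed was near the background, and the direction was uneven where that of all units was nearly even. Without CDGC1 replicate 1 or either control library, which enter the estimate of the spread, 10 members passed.

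On the ATF4 list 8 of 12 genes were lower in CDGC1 and 0 higher (1 at an unadjusted p below 0.05, limma), with a median of -0.43. That count was 7 without either library of CDGC1, either library of control or CDGC6 replicate 2. Cars was at 26.2 and 33.7 FPKM in CDGC1 against 53.3 and 64.2 in CDGC6 (-0.95, SE 0.14, adjusted p = 0.00246). Sars was at 46.0 and 51.5 against 73.8 and 88.9 (-0.72, SE 0.11, adjusted p = 0.00263), and Tars at 75.6 and 75.5 against 106 and 116 (-0.55, SE 0.08, adjusted p = 0.00287). None of these 3 genes differed from control in CDGC1 beyond the threshold, with adjusted p of 0.511, 0.296 and 0.913.

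Nars (-0.49, SE 0.09, adjusted p = 0.00703), Lars (-0.43, SE 0.08, adjusted p = 0.00508), Gars (-0.43, SE 0.08, adjusted p = 0.00531) and Iars (-0.38, SE 0.06, adjusted p = 0.00358) were also lower in CDGC1 than in CDGC6. Lars was at 85.2 and 87.0 FPKM in CDGC1. Yars passed with adjusted p = 0.0288 (-0.55, SE 0.16), which became 0.0504 to 0.107 without either library of CDGC1 or of control or CDGC6 replicate 2, where the difference was -0.32. Mars was the exception on the list, with 113 and 112 FPKM in CDGC1 against 92.4 and 103 in CDGC6, higher in CDGC1 without passing (0.20, SE 0.07, adjusted p = 0.0552).

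Of the other 8 cytosolic genes, 2 were higher in CDGC1, Rars and Hars, and 1 was lower, Farsb. Rars was at 173 and 165 FPKM against 109 and 114 in CDGC6 (0.59, SE 0.06, adjusted p = 0.000741). Hars was at 81.4 and 71.5 against 60.1 and 63.4 (0.30, SE 0.08, adjusted p = 0.0251), and without CDGC1 replicate 1, either library of CDGC6 or either of control its adjusted p was 0.0542 to 0.0979. Kars did not separate the lines (0.02, SE 0.05, adjusted p = 0.807). Of the mitochondrial genes 5 were lower in CDGC1 and 0 higher, also 0 at an unadjusted p below 0.05 (limma). Aars2 was at 11.1 and 11.7 FPKM in CDGC6 against 7.39 and 8.29 in CDGC1 (-0.49, SE 0.10, adjusted p = 0.00856). The unit of Ears2 and Gga2 passed only narrowly (-0.39, SE 0.13, adjusted p = 0.0464), with the opposite sign unmerged (1.44, adjusted p = 0.129), and each library left out in turn except CDGC1 replicate 2 ended its call (adjusted p from 0.065 to 0.186). The 1.44 counted the joint entry of 33.6 FPKM in CDGC1 replicate 1 as Ears2. In CDGC1 replicate 2 Ears2 alone was at 8.29, between its 8.86 and 3.43 in CDGC6, so no reversal of Ears2 itself is shown. Hars2 overlapped between the lines (-0.05, SE 0.17, adjusted p = 0.826). Leaving out CDGC6 replicate 1 left the mitochondrial count at 5, and leaving out any other of the 8 libraries made it 1 or 2.

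Cytosolic and mitochondrial enzymes were also set side by side within each library. The median FPKM of the 20 cytosolic genes divided by that of the 16 mitochondrial genes was 4.89 and 4.79 in control, 4.69 and 5.10 in Dnd1-KD, 7.37 and 7.94 in CDGC1 and 7.495 and 6.68 in CDGC6. Both derived lines thus lay above both ES cell groups. Over genes that were never joined with a neighbour the ratio was 6.04 and 5.29 in control, 6.76 and 8.44 in Dnd1-KD, 9.69 and 8.62 in CDGC1 and 8.31 and 8.83 in CDGC6, where Dnd1-KD and CDGC6 overlapped. For the 13 amino acids with a single mitochondrial and a single cytosolic gene among the members, the cytosolic difference lay above the mitochondrial one in 10 pairs for Dnd1-KD, 12 for CDGC1 and 11 for CDGC6 against control. These 3 comparisons share the 2 control libraries, so the counts are not independent of each other. Between CDGC1 and CDGC6 it did so in 5 of 13. All these counts took the order alone, whether or not a difference passed, and the pairs for alanine, histidine, threonine and valine held joined units. The pair for serine differed most in Dnd1-KD, with log2 differences of 1.72 for Sars and 0.04 for Sars2 (adjusted p = 0.824), and the pair for leucine went the other way, with -0.11 for Lars and 1.04 for Lars2.

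Within the cytosolic class, the summed FPKM of the ATF4 list divided by that of the other 8 genes ordered the groups without overlap. The ratio was 1.04 and 1.08 in control, 1.12 and 1.14 in CDGC1, 1.41 and 1.60 in CDGC6 and 1.71 and 1.75 in Dnd1-KD. The top of that order rested on Sars and on joined units. Without Sars the ratio was 1.33 and 1.496 in CDGC6 and 1.48 and 1.52 in Dnd1-KD, and over genes never joined it was 1.73 and 1.96 in CDGC6 and 1.93 and 1.94 in Dnd1-KD, both overlapping. The sums of the other cytosolic genes were 796 and 801 FPKM in control, 612 and 649 in Dnd1-KD, 918 and 922 in CDGC1 and 880.2 and 883 in CDGC6, so in Dnd1-KD both parts of the ratio differed from control.

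The genes around the synthetases were described from lists of related function. ATF4 and its amino acid response targets other than synthetases numbered 26, of which 25 were tested. In Dnd1-KD 15 were higher and 0 lower (4 lower at an unadjusted p below 0.05, limma), in CDGC6 12 were higher and 0 lower (1 at an unadjusted p below 0.05), and in CDGC1 10 were higher and 6 lower. In the same order, 20.7%, 8.47% and 23.6% of all units were higher and 15.5%, 10.2% and 27% lower. The gene of ATF4 itself, as a unit with Mief1, was at 74.5 and 77.0 FPKM in control, 131 and 142 in Dnd1-KD, 139 and 152 in CDGC1 and 159.5 and 151 in CDGC6, above control in all 6 other libraries. Atf5 and Ddit3, stress response transcription factors, were listed at 0 in all libraries but those of Dnd1-KD, where Atf5 had 48.1 and 58.2 FPKM and Ddit3 135 and 180.5. Both passed the filter only through these libraries, so their calls were fixed by it, and without them 13 of 23 tested genes were higher in Dnd1-KD. Neither could be called in the comparisons without Dnd1-KD, so the counts there are also of 23 genes.

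Between the derived lines 13 of the 23 tested genes other than Atf5 and Ddit3 were lower in CDGC1 and 1 was higher, where 24.1% of all units were lower and 23% higher. Asns, which makes asparagine, was at 76.2 and 77.6 FPKM in control, 44.6 and 45.1 in CDGC1 and 115 and 135 in CDGC6 (CDGC1 minus CDGC6 -1.46, SE 0.09, adjusted p = 8.27e-05). Chac1, which breaks down glutathione, was at 0.720 and 1.78 in CDGC1 and 14.5 and 20.2 in CDGC6 (-3.05, SE 0.26, adjusted p = 0.000288). Trib3, a pseudokinase of the same response, was at 1.20 and 2.22 in CDGC1 and 12.7 and 17.0 in CDGC6 (-2.56, SE 0.23, adjusted p = 0.000373). Phgdh, the entry enzyme of serine synthesis, was at 57.4 and 56.1 in control and 102 and 102 in CDGC1, and did not differ between the lines beyond their spread (0.04, SE 0.07, adjusted p = 0.711). In Dnd1-KD Asns and Phgdh did not pass (adjusted p = 0.256 and 0.219), while Trib3 did, at 16.7 and 20.9 against 5.495 and 6.39 in control (1.505, SE 0.23, adjusted p = 0.00576).

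Of 8 genes for the eIF2 kinases and uncharged tRNA sensing, 3 were higher in Dnd1-KD and 0 lower (0 at an unadjusted p below 0.05, limma), 0 higher (0 at an unadjusted p below 0.05) and 2 lower in CDGC1, and 1 higher and 1 lower in CDGC6, beside the shares of all units just given for these comparisons. Eif2ak1, lower in CDGC1 and CDGC6, was tested as a unit with Pms2. Ppp1r15a, a subunit of the eIF2 phosphatase, had 26.8 and 30.5 FPKM in control and 88.4 and 120.4 in Dnd1-KD (1.82, SE 0.25, adjusted p = 0.00425). Eif2ak4, the GCN2 gene, was at 6.21 and 6.52 in control and 7.18 and 6.79 in Dnd1-KD and did not pass (adjusted p = 0.46). Eif2ak3, the kinase PERK of the endoplasmic reticulum, was at 7.78 and 8.15 in control, 12.1 and 13.5 in Dnd1-KD and 3.24 and 4.08 in CDGC1, higher in the first and lower in the second (adjusted p = 0.0116 and 0.00118).

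Among 8 genes for scaffolds and tRNA delivery, 4 fell in Dnd1-KD and 0 rose (0 at an unadjusted p below 0.05, limma), where 15.5% of all units were lower. In CDGC1 2 rose and 2 fell, where 23.6% of all units were higher and 27% lower. In CDGC6 2 fell and 0 rose (0 at an unadjusted p below 0.05, limma), where 10.2% of all units were lower and 8.47% higher. Eef1e1, a scaffold of the synthetase complex, was at 119 and 131 FPKM in control and lower in all 6 other libraries, at 76.8 and 79.6 in Dnd1-KD, 78.8 and 76.0 in CDGC1 and 85.9 and 85.6 in CDGC6 (adjusted p = 0.00183, 0.000389 and 0.00554). Aimp2, another scaffold, was at 72.8 and 71.9 in control, 50.4 and 50.0 in Dnd1-KD, 111 and 90.7 in CDGC1 and 63.3 and 66.0 in CDGC6. It fell in Dnd1-KD (-0.52, SE 0.10, adjusted p = 0.0105) and rose in CDGC1 (0.47, SE 0.10, adjusted p = 0.00875). Aimp1, the third scaffold, passed in CDGC1 alone among the comparisons with control, from 104 and 111 to 122 and 136 FPKM (0.26, SE 0.09, adjusted p = 0.0466), and whether the groups differ in this was not tested beyond CDGC1 against CDGC6 (adjusted p = 0.203).

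On the mitochondrial side, 10 further genes for tRNA charging and translation had 0 higher and 3 lower in Dnd1-KD (0 higher at an unadjusted p below 0.05, limma). Their median was -0.18 beside the -0.25 of the mitochondrial synthetases. In CDGC1 1 was higher and 4 were lower, and in CDGC6 0 passed (1 higher at an unadjusted p below 0.05, limma). The shares of all units in the comparisons with control are given with the ribosomal protein genes below. Between the lines 4 were lower in CDGC1 and 0 higher (0 at an unadjusted p below 0.05, limma), where 24.1% of all units were lower and 23% higher. Gfm2, lower in Dnd1-KD and CDGC1, was tested as a unit with Fam169a. Tufm, the mitochondrial elongation factor that carries charged tRNA, was at 82.7 and 81.0 in control and 60.6 and 54.7 in Dnd1-KD (-0.50, SE 0.07, adjusted p = 0.00435). Of 76 tested genes for mitochondrial ribosomal proteins, 26 were lower and 3 higher in Dnd1-KD, 6 lower and 15 higher in CDGC1, and 1 lower and 2 higher in CDGC6, where 15.5%, 27% and 10.2% of all units were lower and 20.7%, 23.6% and 8.47% higher.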

How the data were processed

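Libraries were made with TruSeq RNA v2 from RNeasy total RNA and sequenced on a HiSeq2500, per the labels' protocols. The deposited FPKM values and their intervals are in 1 gene tracking table per library, per the file headers. Tools named in the submitters' processing notes, without versions or roles, are Cufflinks, Cuffdiff, TopHat2 and Bowtie, with build mm10. Unnamed entries, with 76.8% to 85.6% of each library's summed FPKM, were not used. Depth was inferred from the intervals, taken as counting noise alone, since the tables hold no counts. For 25 gene names that a spreadsheet had turned into dates the name was restored, and 1307 small RNA symbols were removed, a class that included annotated ribosomal RNA. Symbols that any library joined were summed as 1 unit in all libraries, which gave 21994 units, of which 658 of the 11893 tested hold more than 1 symbol.

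Groups were taken from the labels. Tests used limma 3.58.1 (R 4.3.3) on log2(FPKM + 1) for units that reached 1 FPKM in 2 or more libraries. The fit took all 8 libraries with a mean for each group and trended eBayes, and two-sided p-values were adjusted by Benjamini-Hochberg with a threshold of 0.05. Control was set against Dnd1-KD, CDGC1 and CDGC6, and CDGC1 against CDGC6, 4 comparisons in all. The script was tested on simulated data. The members, gene lists and tests were chosen with earlier results of these data known. Full values were given for up to 10 members per comparison that passed with libraries that did not overlap, by size of the difference, and for Hars, Hars2, Gars and Kars. Others were named where a count or a pair turned on them, and list genes were chosen after their values were seen. A gene of a supporting list is not reported here and was left out of that list's counts. Gene positions came from GENCODE vM21 (GRCm38), promoter windows from RefSeq. Alternatives were pseudocounts, filters, quantile and median-ratio scaling, a replicate block, unmerged symbols, exact zeros as missing, the compared groups alone and each library left out. Units of 1 symbol, Lars2 left out, list genes at 0 outside 1 group left out and marker sums without their highest marker were added after the data were seen. Python 3.11.15 with pandas 2.3.3, numpy 2.4.6 and matplotlib 3.10.9 was used.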

Additional observations from a re-analysis of the deposited data

Results flagged for a closer look

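The effects of the derived lines against control differed, by the test of CDGC1 against CDGC6 (limma), in 16 of the 36 synthetase genes, or 44.4%, where 47.2% of all units passed. Given as CDGC1 minus CDGC6 on the log2(FPKM + 1) scale, the differences on the ATF4 list were -0.95 for Cars, -0.72 for Sars, -0.55 for Yars, -0.55 for Tars, -0.49 for Nars, -0.43 for Lars, -0.43 for Gars and -0.38 for Iars. Among the other cytosolic genes they were 0.59 for Rars, 0.30 for Hars and -0.37 for Farsb. Among mitochondrial genes they were -0.49 for Aars2, -0.39 for Ears2 with Gga2, -0.36 for Sars2, -0.31 for Tars2 with Ecm1 and -0.29 for Cars2. Rars and Hars were thus the members higher in CDGC1.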

How the results depend on the processing

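Across 53 named differences and their alternatives, 1006 values in all, 890 kept direction and side of the threshold, 102 lost the call, 11 gained it and 3 reversed. The 3 that reversed were Ears2 with symbols left unmerged, at 0.82 for Dnd1-KD and 2.10 for CDGC1 against control and 1.44 for CDGC1 against CDGC6. That setting gives each symbol the whole of any entry that lists it. The values for CDGC1 therefore counted its joint entry with Gga2 in replicate 1 as Ears2, and do not show a reversal of Ears2 alone. Of the 102, 78 came from leaving out a library, where fewer libraries estimate the spread.

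The class medians moved as follows, and the cause was not tested. For Dnd1-KD against control the mitochondrial median was -0.29 without Lars2 and with a filter of 5 FPKM, -0.20 with a pseudocount of 5, -0.31 and -0.30 under quantile and median-ratio scaling, and -0.19 unmerged, and the cytosolic median was 0.13 and -0.021 under the same scalings, so its direction is not settled. For CDGC1 against control the mitochondrial median was -0.23 and -0.11 with pseudocounts of 0.1 and 5, -0.11 and -0.17 under quantile and median-ratio scaling, and -0.17 unmerged. For CDGC6 the cytosolic median was 0.36 under quantile normalization and 0.45 unmerged. For CDGC1 against CDGC6 the mitochondrial median was -0.29 with the 5 FPKM filter and the cytosolic median -0.37 unmerged.

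With each library left out in turn, for Dnd1-KD 1363 to 4929 units and 4 to 13 members passed, with medians of -0.094 to 0.092 (cytosolic) and -0.29 to -0.20 (mitochondrial). For CDGC1, 5 to 13 members passed, with medians of 0.16 to 0.25 and -0.26 to -0.049. For CDGC6, 422 to 2902 units and 6 to 13 members passed, with cytosolic medians of 0.30 to 0.45. For CDGC1 against CDGC6, 10 to 16 members passed, with cytosolic medians of -0.37 to -0.22.

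Deviations of same-numbered libraries correlated at -0.0557 to 0.1225, the highest for control and Dnd1-KD, and not every pair of groups exceeded 0.1, so numbers were not taken to pair them. With the replicate block 9, 12, 12 and 14 members passed in the 4 comparisons in the order above. The block gave adjusted p = 0.0523 for the Ears2 unit and 0.0689 for Wars2 in Dnd1-KD, 0.0547 for Iars2 in CDGC6 and 0.068 for the Ears2 unit between the lines, where these had passed (limma), and 0.0283 for Gars in CDGC1, which had not. The deposited FPKM come without counts, and their intervals do not all follow counting noise alone, so depth per gene is not known.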
